A study of Mus musculus with 2 samples.

Results

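Mid-range BRD2 loops are contacts between places of the same chromosome whose outer edges lie more than 20 kb and up to 100 kb apart. They were chosen by length alone, as the right edge minus the left edge of each entry in the deposited loop list, and 3232 of the 7732 listed loops met this rule. The list comes from ChIA-PET, in which chromatin is pulled down with an antibody, here against Brd2, neighbouring DNA ends are ligated and sequencing reads out which places were joined. The 2 samples are replicates 1 and 2 of a single group, untreated wild-type (WT) mouse embryonic stem (mES) cells of the V6.5 line, kept on irradiated mouse embryonic fibroblasts with FBS and leukaemia inhibiting factor. The doxycycline and auxin treatment of BRD2-degron cells in the study's design text was not applied to them. The labels do not say whether the replicates came from separate cultures or whether fibroblasts were removed first, and a loop list holds no marker of either cell type.

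BRD2 is a BET protein, which reads acetylated histones through its bromodomains and is found at promoters and enhancers in use. Enhancers and promoters are often separated along the chromosome and come close in space when the chromatin between them is looped out. A place of contact is called an anchor, and an anchor that contacts several others is said to have several partners. Both replicates had been merged by the authors into a single list, so each loop has 1 score and no replicate error, and no difference below could be tested over samples. Loops share anchors and are not replicates of each other. Exact (Clopper-Pearson) 95% binomial intervals are therefore given as a measure of counting error only. Sequencing depth is unknown. Positions are those of the file, on build mm9, and genes and sequences at these places were not analysed here, since the gene table used is on another build.

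Mid-range loops made up 41.8% of the list and held 39.2% of its summed score (9323000 of 23813000). Their median length was 41.4 kb, with quartiles of 28.5 and 63.1 kb. Numbers fell steadily with length: 936 loops were 20 to 30 kb long, 605 were 30 to 40 kb, 457 were 40 to 50 kb and only 186 were 90 to 100 kb. The limits cut through a continuous range. The shortest loops inside measured 20004 and 20007 bp and the longest short loops outside 19983 and 19994 bp, while the longest inside measured 99938 and 99992 bp and the next outside 100009 and 100079 bp. Of these 8 loops, 6 had a score of 2000, 1 had 3000 and 1, the loop of 19994 bp, had 10000. Counting overlapping stretches once, mid-range loops spanned 107.5 Mb.

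Most mid-range loops had the lowest score and a small number had very high ones, as in the list as a whole. The score, the authors' own value, was a whole multiple of 1000 in every loop and never below 2000, and its unit is not stated. It was 2000 in 1993 mid-range loops, or 61.7%, and 3000 in 645 more. Scores reached 5000 in 329 loops and 10000 in 43, or 1.33%. Over all listed loops, 57.8% had a score of 2000 and 1.98% reached 10000. The mean was 2885 ± 1905 (SD over 3232 loops).

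In strength, the mid-range loops lay between the shorter and the longer ones. Scores of at least 3000 were found in 38.3% of mid-range loops (interval 36.7 to 40.0%), against 55.0% of the 3047 loops of up to 20 kb (53.2 to 56.7%) and 27.4% of the 1199 loops of 100 to 500 kb (24.9 to 30.1%). The intervals do not overlap. Within the mid-range the share was 43.9% at 20 to 30 kb and 43.0% at 30 to 40 kb. It then lay between 32.2% and 36.1% in each step from 40 to 90 kb, and was 25.8% at 90 to 100 kb (19.7 to 32.7%). Spearman's rho between score and length across the 3232 loops was -0.11, a weak relation. It was below 0 on 18 of 20 chromosomes, from -0.25 to 0.05.

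**Figure D1:**
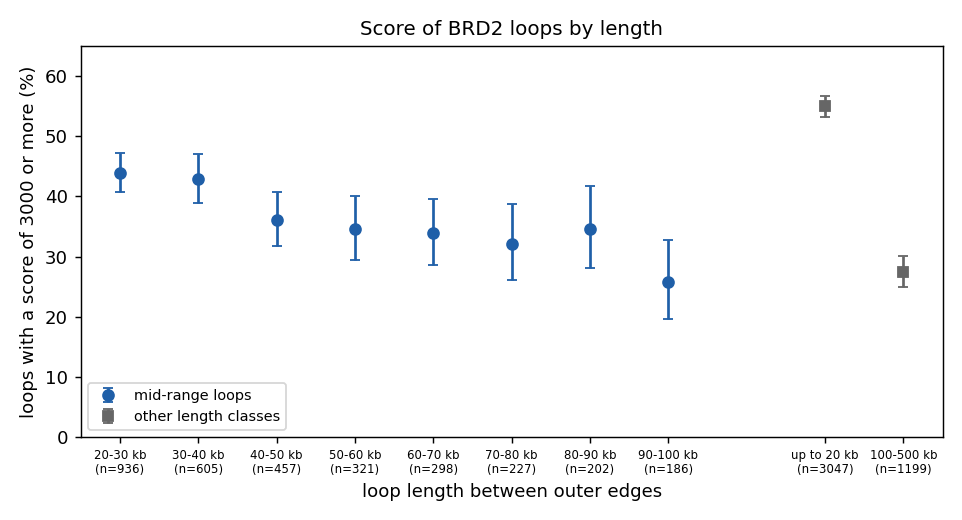
Share of loops with a score of 3000 or more, in percent, for 10 kb steps of length within the mid-range (circles), and for loops of up to 20 kb and of 100 to 500 kb (squares). Bars are exact 95% binomial intervals and n is the number of loops. The share is 43.9% in the shortest step and 25.8% in the longest, between 55.0% for the short loops and 27.4% for the long loops except in the last step.

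The strongest mid-range loop lay on chromosome 4, from 133312455 to 133377250. It was 64.8 kb long, had a score of 30000, and passed over no other listed anchor. Its left anchor had 2 partners and its right anchor 8. The second, on chromosome 1 between 88399839 and 88422587, had a score of 26000 over 22.7 kb. The third, on chromosome 19 between 40947289 and 40970170, had a score of 24000 over 22.9 kb, and its anchors had 2 and 4 partners. The second and the third were thus close in length and shorter than the first.

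The fourth strongest loop, of score 23000, lay on chromosome 17 between 37107539 and 37139725, and its anchors had 8 and 9 partners. A loop on chromosome 4 from 118745546 to 118781501 followed with a score of 22000. Chromosome 1 held 4 of the remaining 5. A pair of them, between 88368524 and 88400259 (score 20000) and between 88339145 and 88369778 (score 18000), met at a shared anchor, which had 10 partners. The others on chromosome 1 were the loop from 34131596 to 34165683 (score 19000) and that from 135560716 to 135591535 (score 17000). The tenth, on chromosome 9 from 114409274 to 114489081, also had a score of 17000 and was the longest of the 10 at 79.8 kb. It passed over 4 anchors. Another loop of score 17000, on chromosome 17 from 37139336 to 37166045, is left out of the 10 by position only.

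Strong mid-range loops shared anchors with other loops more often than those of the lowest score. All 43 loops of score 10000 or more shared at least 1 anchor with another loop, and 35 of them, or 81.4% (66.6 to 91.6%), shared both. Among loops of score 2000, 42.8% shared both anchors (40.6 to 45.0%) and 18.6% shared neither (16.9 to 20.3%). A loop with no other loop at either anchor was called isolated. There were 0 isolated loops among the 43, which allows a share of up to 6.98% by a floor of 3 counts and of up to 8.22% by the exact interval. The 3 isolated mid-range loops with the highest scores were one on chromosome 4 from 125904332 to 125939858 (score 8000, 35.5 kb), one on chromosome 18 from 38308531 to 38334348 (score 7000, 25.8 kb) and one on chromosome 7 from 87484972 to 87516309 (score 6000, 31.3 kb). A score of 6000 was shared by 3 isolated loops, of which the first by position is named.

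In all, 516 mid-range loops were isolated, or 16.0% (14.7 to 17.3%), against 24.2% of short loops (22.7 to 25.8%) and 13.9% of long loops (12.02 to 16.02%). Isolated mid-range loops had lower scores than the others. Scores of at least 3000 were found in 28.3% of them (24.4 to 32.4%), against 40.2% of the 2716 others (38.4 to 42.1%). Their median length was 38.7 kb, against 42.0 kb. Only 42 of the 516 passed over a listed anchor.

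Mid-range loops rested on 4857 of the 9407 anchors in the list. Of these anchors, 2595, or 53.4%, carried mid-range loops and no loop of another length. A short loop of up to 20 kb was also present at 1770 of them, or 36.4% (35.1 to 37.8%), and a loop of 100 to 500 kb at 800, or 16.5% (15.4 to 17.5%). Both were present at 373. Seen from the other side, those 1770 anchors were 34.1% of the 5184 anchors with a short loop, and the 800 were 39.4% of the 2029 anchors with a long loop. Both outer edges were known for 1540 mid-range anchors, whose median width was 355 bp (quartiles 212 and 615 bp). It was 340.5 bp for the 1618 such anchors with a short loop and 360 bp for the 701 with a long loop, and many anchors belong to more than 1 of these sets.

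Many anchors had several mid-range partners. Of the 4857 anchors, 1163, or 23.9% (22.8 to 25.2%), had 2 or more mid-range partners, whereas 15.8% of short-loop anchors had 2 or more short partners (14.8 to 16.8%) and 14.4% of long-loop anchors 2 or more long ones (12.9 to 16.0%). Narrowing the length window lowers this share by construction: it was 15.1% with loops of 20 to 50 kb alone and 12.7% with loops of 50 to 100 kb alone. The 3 classes differ in the width of their windows, and what that width contributes to this order was not tested. A single partner was the rule, at 3694 anchors, while 228 had 3 and 88 had 4 or more. Of the 1163 anchors, 547, or 47.0%, had mid-range partners on both sides, 302 only downstream and 314 only upstream.

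The anchor with the most mid-range partners, 9, lay on chromosome 17 from 71183761 to 71183880. It reached 5 anchors upstream, over 54.6 to 96.5 kb, and 4 downstream, over 31.2 to 82.4 kb. No single contact dominated, since their scores ran from 2000 to 8000 with a sum of 44000. It had 1 short loop and no long one. Another anchor of chromosome 17, from 37139336 to 37139725, had 7 mid-range partners and a far larger summed score of 76000, of which its strongest loop gave 23000.

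On chromosome 1, the anchors from 88399839 to 88400259 and from 88368524 to 88369778 had 7 mid-range partners each, with summed scores of 72000 and 54000, and were joined to each other by the loop of score 20000. The fifth anchor, on chromosome 2 from 71589457 to 71589693, differed in having mid-range loops only. Its 7 partners, 4 upstream and 3 downstream, lay 26.1 to 95.9 kb away. Scores there ran from 2000 to 9000 and summed to 32000. The loop of 95.9 kb was its second strongest, with a score of 8000.

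Mid-range loops often reached past other listed anchors. At least 1 lay between the anchors of 1822 loops, or 56.4% (54.6 to 58.1%), against 5.81% of short loops (5.00 to 6.70%) and 81.9% of long loops (79.6 to 84.0%). By construction a longer loop has more room for anchors, both between these classes and between steps of length. Per 10 kb of loop length, mid-range loops passed over 0.214 anchors, short loops over 0.051 and long loops over 0.172. Of the mid-range loops, 1410 joined neighbouring anchors, 958 passed over 1 anchor, 485 over 2 and 379 over more. The share that passed over an anchor was 38.2% at 20 to 30 kb and 53.4% at 30 to 40 kb, and it lay between 68.8% and 76.2% in every step above 50 kb. The loop that passed over the most anchors, 8, was that on chromosome 1 from 88339145 to 88428884. It enclosed 24 other loops and had a score of 3000. Next were the loops on chromosome 2 from 170021329 to 170113366 and on chromosome 8 from 87163246 to 87261760, each over 7 anchors and each of score 2000. A loop on chromosome 14 from 55633322 to 55725243 had the same values and follows by position.

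The share of anchor pairs that were joined fell with distance. The list held 13914 pairs of anchors 20 to 100 kb apart, and 23.2% of them were joined by a loop (22.5 to 23.9%). The share was 70.5% for the 4323 pairs up to 20 kb apart and 2.85% for the 42040 pairs 100 to 500 kb apart. Within the mid-range it was 42.1% at 20 to 30 kb (40.02 to 44.2%), 25.3% at 40 to 50 kb (23.3 to 27.4%) and 12.3% at 90 to 100 kb (10.7 to 14.1%). An anchor is known only by its loops, so an anchor with a single loop is joined by definition, which raises these shares. Keeping the 12258 mid-range pairs in which both anchors carried some other loop left out 1656 pairs, and all of these were joined, so that this choice lowers the shares instead. Among the pairs kept, 12.9% were joined (12.3 to 13.5%), with 25.7% at 20 to 30 kb (23.6 to 27.8%), 14.6% at 40 to 50 kb (12.9 to 16.5%) and 6.57% at 90 to 100 kb (5.34 to 7.99%).

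How often pairs with other anchors between them were joined, at a given distance, depended on which pairs were counted. Over all pairs 20 to 30 kb apart, 31.4% were joined with 1 anchor between them (28.5 to 34.5%) and 27.5% with 2 (21.6 to 34.2%), against 54.7% with none (51.7 to 57.8%). Over all pairs 60 to 70 kb apart, the shares were 18.3% with 1 (14.6 to 22.6%) and 16.5% with 2 (13.1 to 20.3%), against 33.7% with none (28.1 to 39.6%). Neighbouring anchors were thus joined more often by this count. Among pairs with other loops at both anchors that difference was not seen. The shares were then 24.6% with 1 (21.7 to 27.6%) and 25.7% with 2 (19.9 to 32.3%), against 27.2% with none (23.9 to 30.8%), at 20 to 30 kb, and 10.2% with 1 (7.27 to 13.9%) and 11.5% with 2 (8.61 to 15.1%), against 5.67% with none (2.86 to 9.92%), at 60 to 70 kb. Of the 1656 joined pairs left out there, 1052 had no anchor between them, so neither count settles the order. Pooled over 20 to 100 kb, 7.58% of all pairs with 5 or more anchors between them were joined, against 42.9% with none, and among pairs with other loops at both anchors 6.58% against 16.0%. Pairs with more anchors between them also lie farther apart.

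**Figure D2:**
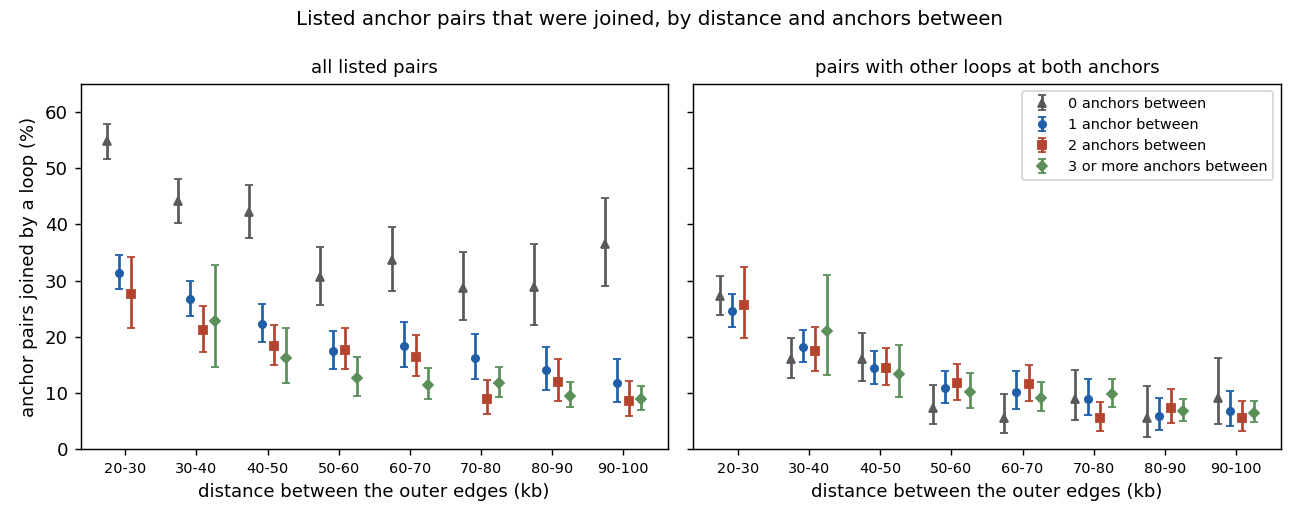
Share of listed anchor pairs joined by a loop, in percent, against the distance between their outer edges in kb, for pairs with 0, 1, 2 or 3 and more listed anchors between them. The left panel counts all pairs and the right panel only those in which both anchors carry some other loop, points with fewer than 20 pairs are not drawn, and bars are exact 95% binomial intervals. In the left panel pairs with 0 anchors between them lie highest in each step, at 54.7% for 20 to 30 kb. In the right panel, where that point is 27.2%, the bars of the marks drawn overlap within each step.

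Mid-range loops often stood above smaller loops. At least 1 shorter loop lay wholly within the edges of 1732 of them, or 53.6% (51.9 to 55.3%). The share rose with length, from 5.61% of short loops (4.82 to 6.49%) to 78.2% of long loops (75.8 to 80.5%). By construction a longer loop has more room for others, and the shortest listed loop measured 5256 bp, which leaves short loops little room. A short loop was enclosed by 1499 mid-range loops and another mid-range loop by 914. In 1661 of these 1732, an enclosed loop shared an anchor with the enclosing one. At the upper end, 233 mid-range loops enclosed 5 or more loops. Between mid-range loops alone, 2246 pairs shared an anchor, 692 pairs crossed (each with 1 anchor inside the other loop) and 317 pairs were nested without sharing an anchor. Crossing involved 783 loops, or 24.2%, and nesting 462, or 14.3%. None of these relations applied to 1047 loops, or 32.4% (30.8 to 34.0%).

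Some mid-range loops were closed into triangles, which means that both of their anchors were also joined to the same other anchor, a common partner. This held for 1012 loops, or 31.3% (29.7 to 32.9%), against 25.3% of short loops (23.8 to 26.9%) and 20.4% of long loops (18.1 to 22.7%). In 589 of them, or 18.2% of all mid-range loops (16.9 to 19.6%), a common partner lay inside the loop, so that the long contact and 2 shorter ones spanned the same stretch. In the other 423, or 13.1%, common partners lay only outside. The order of the classes differed between the 2 kinds. An inside common partner was present for 2.82% of short loops, which have little room for one, and 13.5% of long loops. Common partners lay only outside for 22.5% of short loops, more than in the mid-range, and 6.84% of long loops. A longer chain of enclosed loops bridged 38 mid-range loops without an inside common partner, of which 5 had a common partner outside and 33 had none. The pair of shorter contacts was 1 short and 1 mid-range loop in 322 of the 589, 2 short loops in 170 and 2 mid-range loops in 97.

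The long contact of such a triangle seldom exceeded both of the shorter ones. Where several common partners lay inside, that with the highest score on its weaker contact was taken. This choice favours a long contact that scores below both. In addition, 254 of the 589 loops had the lowest score in the list, 2000, and so could not exceed any contact. The mid-range loop scored below both shorter contacts in 163 of 589 cases, or 27.7%, above both in 82, or 13.9%, and between them or level with 1 of them in 344. In triangles with 2 short loops, the long contact had a mean score of 3906 and the short ones a mean of 5597. An example is the loop of 61.1 kb from 88339145 to 88400259 on chromosome 1, with a score of 7000. The contacts that divide it at 88368524 scored 18000 and 20000.

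Loops in triangles had higher scores than mid-range loops without a common partner. Scores of at least 3000 were found in 56.9% of the 589 loops with a common partner inside (52.8 to 60.9%) and in 48.7% of the 423 with common partners only outside (43.8 to 53.6%), against 31.4% of the 2220 with none (29.5 to 33.4%). The intervals of inside and outside closure overlap. Their mean scores were 3630 ± 2706 and 3513 ± 2867, against 2567 ± 1207 without a common partner (SD over loops), and scores of at least 5000 were found in 20.2% and 19.6%, against 5.72%. By length, the share with at least 3000 was higher for inside closure than without a common partner in 8 of 8 steps, at 59.6% against 36.6% for 20 to 30 kb, 61.4% against 26.2% for 50 to 60 kb and 10 of 31 loops against 35 of 140 for 90 to 100 kb. For outside closure this held in 7 of 8 steps, the exception being 90 to 100 kb with 3 of 15 loops. Inside closure had the higher share of the 2 kinds in 7 of 8 steps, with overlapping intervals in all 8. Seen by score, an inside common partner was present for 12.7% of loops of score 2000, 21.7% of score 3000, 28.7% of score 4000, 34.6% of score 5000 to 9000 and 46.5% of the 43 loops of score 10000 or more (31.2 to 62.3%).

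The strength of the surroundings moved with closure. The other loops at the 2 anchors had a median summed score of 20000 for inside closure and 16000 for outside closure, against 4000 for the 2220 loops without a common partner, and a loop in a triangle must have such other loops. Where that sum lay above 5000 and up to 10000, 34.7% of 98 loops closed inside (25.4 to 45.0%) and 37.7% of 106 closed outside (28.5 to 47.7%) scored at least 3000, against 32.5% of 467 without a common partner (28.3 to 37.01%). Above 10000 and up to 20000 the shares were 55.0% of 191 (47.6 to 62.2%) and 53.9% of 165 (46.02 to 61.7%), against 38.4% of 307 (33.0 to 44.1%). Above 20000 they were 65.3% of 288 (59.5 to 70.8%) and 52.6% of 137 (43.9 to 61.1%), against 42.6% of 94 (32.4 to 53.2%). A sum above 0 and up to 5000 was found for only 12 loops closed inside, 8 of which scored at least 3000 (34.9 to 90.1%). It was found for 15 closed outside, 5 of which did (11.8 to 61.6%), against 28.9% of 836 without a common partner (25.9 to 32.2%). Between closed loops and those without a common partner, the intervals thus parted for inside closure up to 5000, on these few loops, and overlapped there for outside closure. They overlapped for both kinds of closure from 5000 to 10000 and parted for both from 10000 to 20000. Above 20000 they parted for inside closure and overlapped for outside closure. What the strength of the surroundings contributes was not tested.

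**Figure D3:**
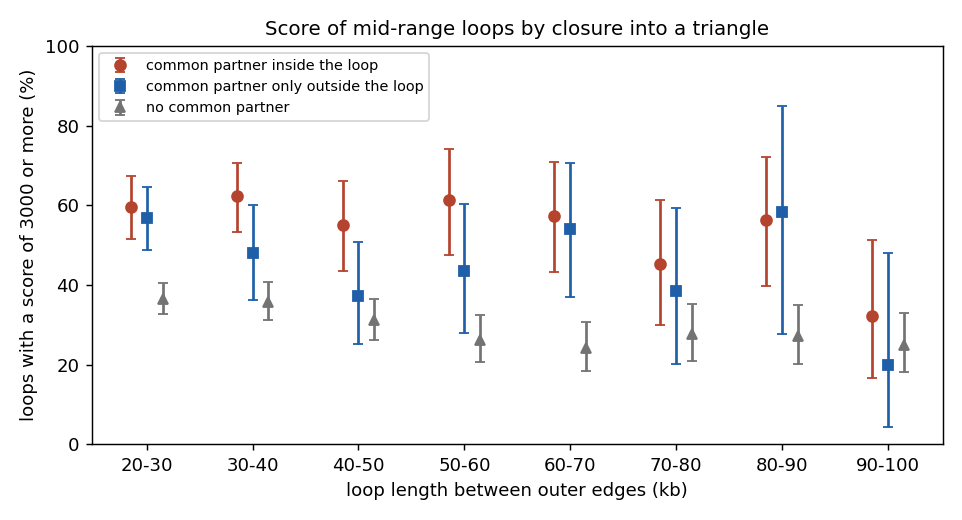
Share of mid-range loops with a score of 3000 or more, in percent, by 10 kb step of length in kb, for loops with a common partner inside the loop (circles), loops with common partners only outside (squares) and loops with none (triangles). Bars are exact 95% binomial intervals. Circles lie above triangles in each of the 8 steps and squares in 7, the bars of circles and squares overlap in all 8, and the fewest loops behind a mark are 12.

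Taken alone, mid-range loops formed 1781 connected groups. Of these, 1184 were a single loop, which is 36.6% of mid-range loops, whereas the 169 groups with at least 5 anchors took in 1015 loops, or 31.4%. Most groups, 1686 of 1781 with the single loops among them, held no closed ring of mid-range loops. Triangles made of mid-range loops only numbered 129 and lay in 83 groups.

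The group with the most loops, 18, lay on chromosome 1 from 88324363 to 88483827. Its 11 anchors lay within 159 kb and its loops had a summed score of 121000. A row of strong loops ran through it: from 88339145 to 88369778 with a score of 18000, from 88368524 to 88400259 with 20000, and from 88399839 to 88422587 with 26000. These loops meet end to end, and loops that span 2 of them scored 7000 and 5000. Between the anchors at 88384782 and 88399839, 11 mid-range loops lay above each other, the highest stack in the list.

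The second group, on chromosome 17 from 37057219 to 37216227, had 17 loops between 9 anchors and the largest summed score of the 3, 132000. It too held a row of loops meeting end to end, with scores of 23000 (from 37107539), 17000 (from 37139336), 16000 (from 37165508) and 7000 (from 37187384). Loops that span 2 of these steps scored 6000, 5000 and 7000, and those that span 3 scored 9000 and 9000. The group held 12 triangles of mid-range loops.

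The third group, also on chromosome 17, from 71056403 to 71266163, had 17 loops between 13 anchors over 210 kb. It was looser, with 4 mid-range triangles, and its highest score was 8000. It centred on the anchor with 9 mid-range partners, and 4 long and 13 short loops lay within its span.

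**Figure D4:**
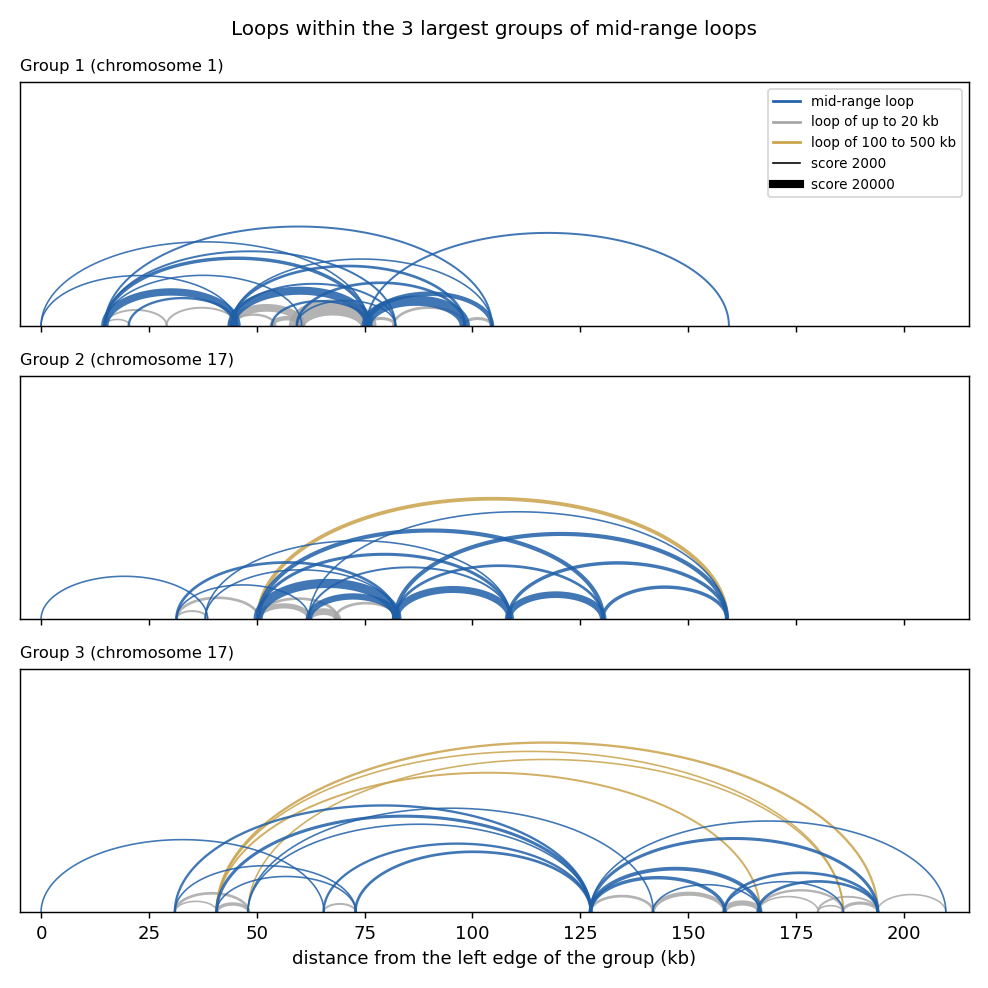
Loops within the spans of the 3 groups with the most mid-range loops, drawn as arcs over the distance from the left edge of the group in kb. The height of an arc is proportional to its length and the line width rises with the score. Colour gives the length class. In groups 1 and 2 thick mid-range arcs (scores 16000 to 26000) follow each other end to end, while group 3 has thinner arcs that fan out from 1 anchor.

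The share of mid-range loops differed little between chromosomes, while closure differed more. Mid-range loops made up 36.9% of the loops on chromosomes 14, 16 and X and 47.6% on chromosome 18. The interval held the share of the whole list, 41.8%, on 19 of 20 chromosomes, the exception being chromosome 17 with 261 of 550 loops, or 47.5% (43.2 to 51.7%). Closure through an inside anchor ranged from 4.17% of the 72 mid-range loops on chromosome 16 (0.868 to 11.7%) to 30.3% of the 261 on chromosome 17 (24.8 to 36.2%). The interval held the overall 18.2% on 15 chromosomes. Chromosomes 12 and 17 lay above it and chromosomes 7, 8 and 16 below.

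Chromosomes 7 and 17 differed in this respect although both were rich in mid-range loops, with 245 and 261. On chromosome 7, 10.2% were closed through an inside anchor (6.72 to 14.7%), and 18.4% of the 1329 anchor pairs 20 to 100 kb apart were joined. On chromosome 17 that share was 24.2% of 1079 pairs, and on chromosome 12 it was 33.7% of 282. Among pairs with other loops at both anchors the shares were 9.74% on chromosome 7, 17.04% on chromosome 17 and 21.8% on chromosome 12. Chromosome X held 24 mid-range loops, none with a score above 4000, and 5 of them passed over an anchor.

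**Figure D5:**
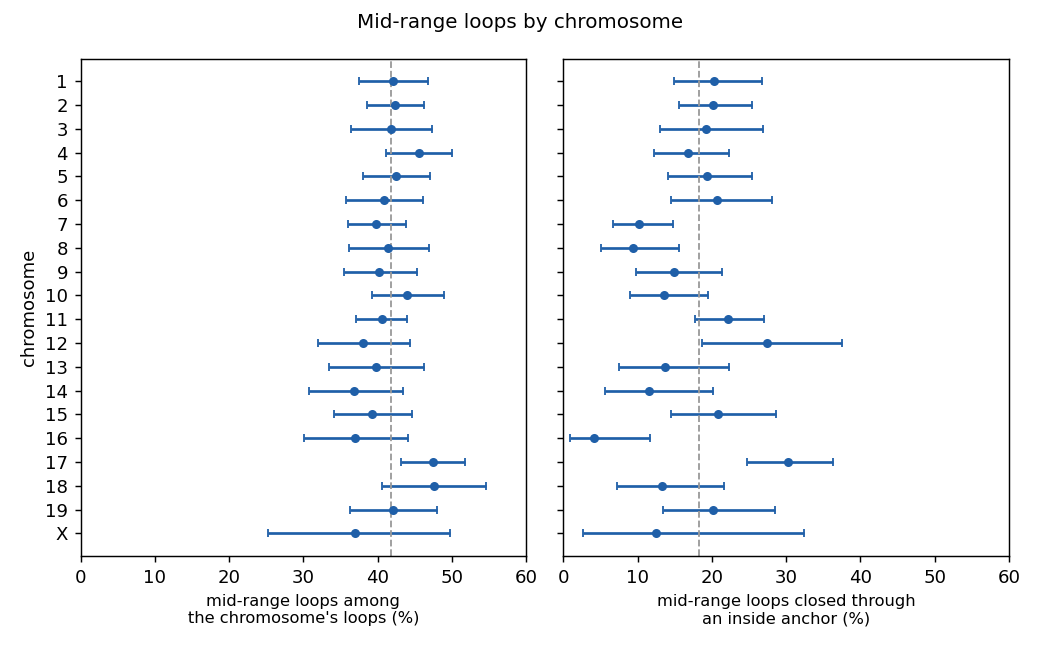
Mid-range loops by chromosome. The left panel gives their share of all loops of the chromosome and the right panel the share of them closed through an inside anchor, both in percent, with exact 95% binomial intervals. Dashed lines mark the whole list, 41.8% and 18.2%. The left shares stay between 36.9% and 47.6%, the right ones run from 4.17% on chromosome 16 to 30.3% on chromosome 17.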

How the data were processed

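ChIA-PET libraries of BRD2 from 2 samples of untreated wild-type V6.5 cells were merged by the authors into a single list of high-confidence interactions, per the file headers. In the submitters' processing notes, cutadapt, Bowtie and the build mm9 appear. The caller and its thresholds were not given in the sources used here. Each loop carries 1 deposited score. Its unit is not stated, and it was used as deposited.

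The first pair of start and end columns was read as the outer edges of a loop, which is an inference. The second pair repeats the left edge in all 7732 loops and was not used. Where a right edge followed a left one by under 5000 bp, both were assigned to 1 anchor, which gave 9407 anchors. Anchors with 1 known edge were placed at it. Shares have exact Clopper-Pearson 95% intervals. No test was run, since the list is merged. Loops and anchors named are the 10 strongest mid-range loops, the 5 anchors with the most mid-range partners, the 3 largest mid-range groups, the 3 loops over the most anchors, the 3 strongest isolated loops and those nearest the limits. The members, rules and alternatives were chosen with earlier results of these data known. Anchor and triangle steps were tested on simulated data. The simulated anchors were spaced wider than the 5000 bp limit, so the pairing of edges from closer anchors was not checked. Python 3.11.15, numpy 2.4.6, pandas 2.3.3, scipy 1.17.1, networkx 3.6.1 and matplotlib 3.10.9 were used. Alternatives were a minimum score, other length measures and limits, joining of edges within 10000 bp, and leaving out chromosomes 11 and 17 or loops over 1 Mb.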

Additional observations from a re-analysis of the deposited data

How the results depend on the processing

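Of 85 values recomputed under other settings for 11 results, 23 stayed inside the interval of the value reported and 62 left it. Keeping loops of score 3000 or more alone removed the others and their anchors first and left 3260 loops. By construction, a kept loop then has fewer anchors to pass over and fewer loops to enclose or share an anchor with. Mid-range loops were 38.0% of that list, and rho of score and length was -0.067. Of them, 47.2% passed over an anchor, 45.4% enclosed a shorter loop and 24.2% were in triangles. Of their anchors, 29.9% had a short loop and 16.9% had 2 or more mid-range partners. Of anchor pairs with other loops, 11.02% were joined. On the full list, 55.0% of mid-range loops of score 2000, 54.7% of score 3000 and 76.7% of score 10000 or more passed over an anchor. For loops of 20 to 50 kb and of 50 to 100 kb alone, by construction, the share of the list was 25.8% and 16.0%, the highest share on a chromosome 28.7% and 20.4%, and 2 or more partners 15.1% and 12.7%. In the same order, 41.8% and 32.7% scored at least 3000, rho was -0.054 and -0.041, 47.6% and 70.6% passed over an anchor, 45.0% and 67.4% enclosed a loop, 33.0% and 28.5% were in triangles, and 38.9% and 38.1% of anchors had a short loop. Without chromosomes 11 and 17, 54.3% passed over an anchor, 51.5% enclosed a loop, 29.1% were in triangles, 34.9% of anchors had a short loop and 22.7% had 2 or more partners. Joining all edges within 10000 bp gave 39.0%, 35.98%, 28.6%, 34.8% and 27.8% for these 5 results, and 52.0% of loops closed inside with a score of 3000 or more, against 36.4% of others. By length step, that share of loops closed inside left its interval at 30 to 40 kb (62.3%), 50 to 60 kb (61.4%), 70 to 80 kb (45.2%) and 90 to 100 kb (32.3%), and exceeded that of other loops in each. Loops whose anchors both have 2 known edges have partners on each side by construction. Among them, with lengths between midpoints and between inner edges, mid-range loops were 44.3% and 43.8%. With midpoints, inner edges and outer edges, 48.6%, 48.7% and 49.2% scored at least 3000, 68.6%, 68.8% and 68.4% passed over an anchor, 66.6%, 66.8% and 66.3% enclosed a loop, 60.5%, 60.6% and 60.5% were in triangles, 71.6%, 71.8% and 71.8% of anchors had a short loop and 65.3%, 65.4% and 65.3% had 2 or more mid-range partners. The 3 measures thus differed by less than 1 percentage point and the subset moved the values. With inner edges rho was -0.069. Leaving out loops over 1 Mb left the results run within their intervals. Outer edges over this subset and all settings for loops closed inside and for anchor pairs were chosen after seeing the data. Beyond the settings whose construction is named, the cause was not tested. Leaving out a replicate was not run on the merged list. No paired analysis was possible because there is only 1 group. Depth is unknown, and with 61.7% of mid-range loops at the lowest score, a loop that is not listed cannot be called absent.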
